A study of Mus musculus with 6 samples.

Results

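The 8 genes of angiotensin, endothelin and adrenergic signalling examined here in RNA sequencing of the infarcted mouse heart were *Agt*, *Ace*, *Agtr1a*, *Edn1*, *Ednra*, *Ednrb*, *Adrb1* and *Adra1a*, taken by gene name from the 54532 genes that the deposited table lists, and all 8 had enough fragments to be tested. The study sequenced the infarct and its border from the hearts of 3 WT mice and 3 Crlf2-/- mice (labelled TSLPR KO), each as 1 library. Every mouse carried a permanent ligation of the left anterior descending coronary artery and was sampled on day 7 post-MI, and no sham or uninjured heart was analysed here. All mice were on the C57BL/6J background (C57BL/6 in the labels). The paper calls the WT mice male and gives no sex for the Crlf2-/- mice. The WT mice were bought at 8 to 12 weeks of age from 1 supplier, whereas the Crlf2-/- mice are knockouts of the receptor chain for the cytokine TSLP and were made by another company, with no age stated for them. Genotype and source of the animals therefore cannot be told apart. *Crlf2* itself was at 26.64, 25.1 and 21.63 FPKM in WT mice and at 13.18, 18.67 and 19.79 FPKM in Crlf2-/- mice. FPKM divides a gene's fragments by its length and by the mapped fragments of the library. *Crlf2* was lower in every Crlf2-/- library but still expressed (log2 fold change -0.52 ± 0.17 SE, adjusted p = 0.521 by limma with Benjamini-Hochberg adjustment). Which stretch of the gene was deleted is not given in the sources used here, so fragments from the rest of the gene are no test of the labels.

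Angiotensinogen, the product of *Agt*, is cleaved by renin to angiotensin I and then by angiotensin converting enzyme, the product of *Ace*, to angiotensin II, which acts on the type 1 receptor encoded by *Agtr1a* and *Agtr1b* in the mouse. Endothelin 1, the product of *Edn1*, is released by converting enzymes and binds the type A and type B receptors encoded by *Ednra* and *Ednrb*. Noradrenaline and adrenaline act on the beta 1 receptor (*Adrb1*), which drives heart rate and contraction, and on the alpha 1A receptor (*Adra1a*). The 3 systems can raise blood pressure.

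The peptide hormones of the list are short stretches of longer precursors, and their coding sequences are shown because *Agt* and *Edn1* are the ligand genes on which the first and second pathway turn. The bases come from the GENCODE M21 transcripts (GRCm38). Capitals mark the codons of angiotensin I, from which angiotensin II is cut, and of endothelin 1, and small letters the 9 coding bases on each side. The angiotensin I stretch has 10 codons and lies in exon 2 of 5 of *Agt*, and the 48 bases shown lie at chr8:124564441-124564488 on the minus strand. The endothelin 1 stretch has 21 codons and lies in exon 2 of 5 of *Edn1*, and the 81 bases shown lie at chr13:42303640-42303720 on the plus strand.
Agt angiotensin I: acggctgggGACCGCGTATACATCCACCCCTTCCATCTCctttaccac
Edn1 endothelin 1: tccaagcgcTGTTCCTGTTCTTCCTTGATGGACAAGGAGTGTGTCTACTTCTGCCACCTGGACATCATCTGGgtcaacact

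The type 1 angiotensin receptor has 2 genes in the mouse, and they could share fragments. Over their 1080 coding bases *Agtr1a* and *Agtr1b* were 90.8% identical, with a longest identical run of 66 bases. The coding window of 60 bases in which they differed most is shown, with the 13 differing bases in capitals. It covers coding bases 964 to 1023, at chr13:30381917-30381976 on the plus strand for *Agtr1a* and at chr3:20315418-20315477 on the minus strand for *Agtr1b*. The pairs of endothelin receptors and of alpha 1 receptors were less alike. *Ednra* and *Ednrb* were 65.9% identical, and *Adra1a* and *Adra1b* 66.6%.
Agtr1a: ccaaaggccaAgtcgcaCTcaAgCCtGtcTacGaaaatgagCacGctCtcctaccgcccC
Agtr1b: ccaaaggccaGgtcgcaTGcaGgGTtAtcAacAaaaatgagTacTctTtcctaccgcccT

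The first question was how strongly each gene was expressed in the infarcted heart. The mean FPKM over the 6 libraries was 25.28 for *Ace*, 10.19 for *Ednra*, 7.197 for *Ednrb*, 6.831 for *Edn1*, 1.431 for *Agtr1a*, 1.231 for *Adrb1*, 0.7525 for *Agt* and 0.222 for *Adra1a*. FPKM divides by the listed length of a gene, so this order rests on those lengths as well as on fragments. *Adra1a*, listed at 8728 bases, had 34 to 66 fragments a library, and *Agt*, listed at 1891 bases, had 10 to 65. The order had clear steps at 2 places, since the ranges over the 6 libraries did not overlap between *Ace* and *Ednra* or between *Edn1* and *Agtr1a*. The ranges of all other neighbours overlapped. Within a library *Ednra* nevertheless stood above *Ednrb* in 6 of 6 libraries, *Ednrb* above *Edn1* in 4, *Agtr1a* above *Adrb1* in 5, *Adrb1* above *Agt* in 4 and *Agt* above *Adra1a* in 6. The coefficient of variation over the 6 libraries was 15.6% to 35.4% in the 7 other genes and 63.3% in *Agt*.

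**Figure D1:**
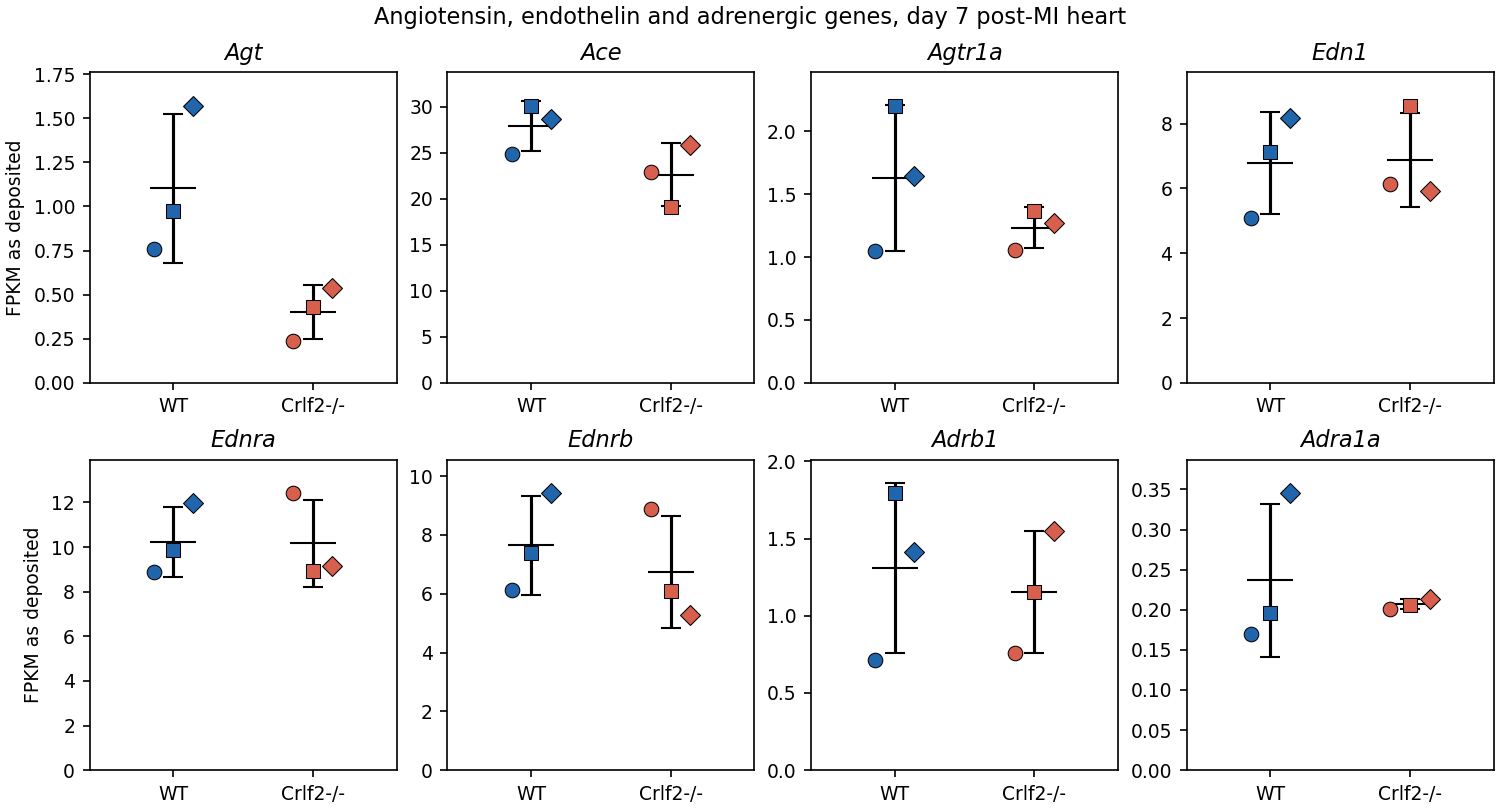
FPKM as deposited (vertical axes, each starting at 0) of the 8 genes in 3 WT libraries (blue) and 3 Crlf2-/- libraries (red), with circles, squares and diamonds for replicates 1, 2 and 3 of a group and horizontal bars with whiskers for mean ± SD. The groups are apart in *Agt*, where WT libraries lie between 0.7579 and 1.572 and Crlf2-/- libraries between 0.2384 and 0.5396, and they overlap in the other 7 genes.

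The second question was whether the genes differed between the genotypes. No member passed the test, in which a called gene had an adjusted p up to 0.05 and a log2 fold change of 0.5 or more in either direction. In the same limma fit 2 of 15520 genes, or 0.0129%, were called. The paper, which tested these groups with DESeq2 at the same thresholds, reported many more genes. The lack of a call here therefore does not show that a member was unchanged. Of the 8 members 1, *Agt*, had an unadjusted p under 0.05, against 6.58% of all genes tested. *Agt* was also the one member whose groups did not overlap, which was counted on FPKM after scaling between libraries, against 11.7% of all genes in either direction and 6.37% in the direction lower in Crlf2-/- mice. The fold change was below 0 in 7 members and above 0 in 1, and the median log2 fold change of the 8 was -0.16, beside -0.004 for all genes tested. All fold changes were taken from log2(FPKM + 0.1), so those of genes with low levels are understated. Since these are pieces of tissue, fewer cells of a type and less RNA per cell cannot be told apart.

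The precursor gene *Agt* (ENSMUSG00000031980) lies at chr8:124556534-124569706 on the minus strand, with 5 exons. It was at 0.7579, 0.9762 and 1.572 FPKM in WT mice and at 0.2384, 0.4307 and 0.5396 FPKM in Crlf2-/- mice. Every Crlf2-/- library was below every WT library, and WT replicate 3 was the highest of the 6. The means were 1.102 ± 0.421 FPKM and 0.403 ± 0.153 FPKM (SD, n = 3 each). These levels rested on few fragments, 33, 40 and 65 in WT mice and 10, 19 and 23 in Crlf2-/- mice. The log2 fold change was -1.25 ± 0.33 (SE), or 0.421-fold with a 95% interval of 0.251 to 0.709. Its unadjusted p was 0.00493 and ranked 214 among all genes, and its adjusted p was 0.355 by limma, so *Agt* did not pass. Its difference was between -1.46 and -0.57 in the 15 alternative fits, with adjusted p from 0.26 to 0.843 by limma. That it kept its sign could be foreseen, as the groups did not overlap, and is no further support. The -0.57 end came from the larger pseudocount.

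*Ace*, the gene of the enzyme that makes angiotensin II and degrades bradykinin, lies at chr11:105967945-105989964 on the plus strand and was the highest member. It was at 24.92, 30.14 and 28.69 FPKM in WT mice and at 22.94, 19.1 and 25.89 FPKM in Crlf2-/- mice. WT replicate 1 lay below Crlf2-/- replicate 3, so the groups overlapped by that pair alone. The means were 27.92 ± 2.70 and 22.64 ± 3.40 FPKM (SD, n = 3 each), and the fold was 0.81 with a 95% interval of 0.651 to 1.01 (log2 fold change -0.30 ± 0.14 SE, adjusted p = 0.791 by limma). The unadjusted p of 0.0572 was 0.0381 without WT replicate 1, 0.0243 without Crlf2-/- replicate 3 and 0.213 without Crlf2-/- replicate 2. With 2356 to 3453 fragments a library, counting error was small beside the spread between these libraries. An exon of *Ace* overlaps *Gm11651* on the opposite strand, which was listed at 0 in all 6 libraries. Whether fragments were counted by strand is not given in the sources used here.

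*Agtr1a*, the gene of the type 1A angiotensin receptor, lies at chr13:30336441-30382867 on the plus strand. It was at 1.044, 2.203 and 1.642 FPKM in WT mice and at 1.052, 1.369 and 1.274 FPKM in Crlf2-/- mice. The lowest library of each group had nearly the same level, and the 2 highest libraries were WT. The fold was 0.799 with a 95% interval of 0.531 to 1.2 (log2 fold change -0.32 ± 0.26 SE, adjusted p = 0.948 by limma, 65 to 133 fragments a library). Leaving out 1 library moved this value widely, to -0.59 without WT replicate 1 (unadjusted p = 0.0256) and to -0.09 without WT replicate 2. *Agtr1b*, the near copy shown above, had at most 2 fragments in any library, and the type 2 receptor gene *Agtr2*, whose level was looked up once the others were known, had 1 to 12. *Agtr1a* was above both in 6 of 6 libraries, and its mean FPKM was 20.2 times that of *Agtr2*.

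Of the ligand and receptor genes of the endothelin system none differed by more than the spread between libraries. *Edn1*, the ligand gene at chr13:42301476-42307990 on the plus strand, was at 5.076, 7.12 and 8.168 FPKM in WT mice and at 6.133, 8.557 and 5.932 FPKM in Crlf2-/- mice. The lowest library was WT and the highest Crlf2-/-, and the groups lay over each other. The fold was 1.02 with a 95% interval of 0.74 to 1.41 (adjusted p = 0.996 by limma, 250 to 427 fragments a library). An exon of *Edn1* overlaps *Gm47118* on the opposite strand, which was at no more than 0.343 FPKM in any library.

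*Ednra*, the gene of the type A receptor, which mediates constriction in smooth muscle, lies at chr8:77663031-77724464 on the minus strand. It was at 8.882, 9.844 and 11.95 FPKM in WT mice and at 12.43, 8.924 and 9.131 FPKM in Crlf2-/- mice. Crlf2-/- replicate 1 was the highest of all libraries and WT replicate 1 the lowest, and the group means of 10.23 ± 1.57 and 10.16 ± 1.97 FPKM (SD, n = 3 each) were within each other's spread. The fold was 0.992 with a 95% interval of 0.764 to 1.29 (adjusted p = 0.996 by limma). With 1120 to 1510 fragments a library, *Ednra* gave the narrowest interval after *Ace*. Its overlapping neighbour on the opposite strand, *4933431K23Rik*, was at no more than 0.1606 FPKM.

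*Ednrb*, the gene of the type B receptor, which clears endothelin and acts in endothelium, lies at chr14:103814625-103844402 on the minus strand. It was at 6.118, 7.378 and 9.434 FPKM in WT mice and at 8.898, 6.089 and 5.262 FPKM in Crlf2-/- mice. Crlf2-/- replicate 1 was again high for its group, and the other Crlf2-/- libraries were below all 3 WT libraries. The fold was 0.879 with a 95% interval of 0.619 to 1.25 (log2 fold change -0.19 ± 0.22 SE, adjusted p = 0.988 by limma). The difference was -0.40 without Crlf2-/- replicate 1 (unadjusted p = 0.0655) and -0.03 without Crlf2-/- replicate 3.

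*Adrb1*, the gene of the main beta receptor of cardiomyocytes, is given at chr19:56722372-56724862 on the plus strand in the deposited table. It was at 0.7148, 1.797 and 1.414 FPKM in WT mice and at 0.7601, 1.153 and 1.55 FPKM in Crlf2-/- mice. Replicate 1 was the lowest library in both groups, and the ranges covered each other almost completely. The fold was 0.915 with a wide 95% interval of 0.524 to 1.6 (adjusted p = 0.996 by limma, 41 to 97 fragments a library). The mean FPKM of *Adrb1* was 4.35 times that of *Adrb3*, the beta 3 receptor gene, another gene looked up after the rest.

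*Adra1a*, the gene of the alpha 1A receptor, lies at chr14:66635251-66771168 on the plus strand and was the lowest member in FPKM. It was at 0.1692, 0.1956 and 0.3458 FPKM in WT mice and at 0.2014, 0.2063 and 0.2135 FPKM in Crlf2-/- mice. The Crlf2-/- libraries were nearly equal and lay inside the WT range, whose top was WT replicate 3 alone. The fold was 0.936 with a 95% interval of 0.627 to 1.4 (adjusted p = 0.996 by limma, 34 to 66 fragments a library). *Adra1b*, the alpha 1B receptor gene, was above *Adra1a* in FPKM in all but 2 libraries, at 0.1733 to 0.5409. This order rests on the listed lengths, 3382 bases for *Adra1b* and 8728 for *Adra1a*, as *Adra1b* had 13 to 40 fragments a library.

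**Figure D2:**
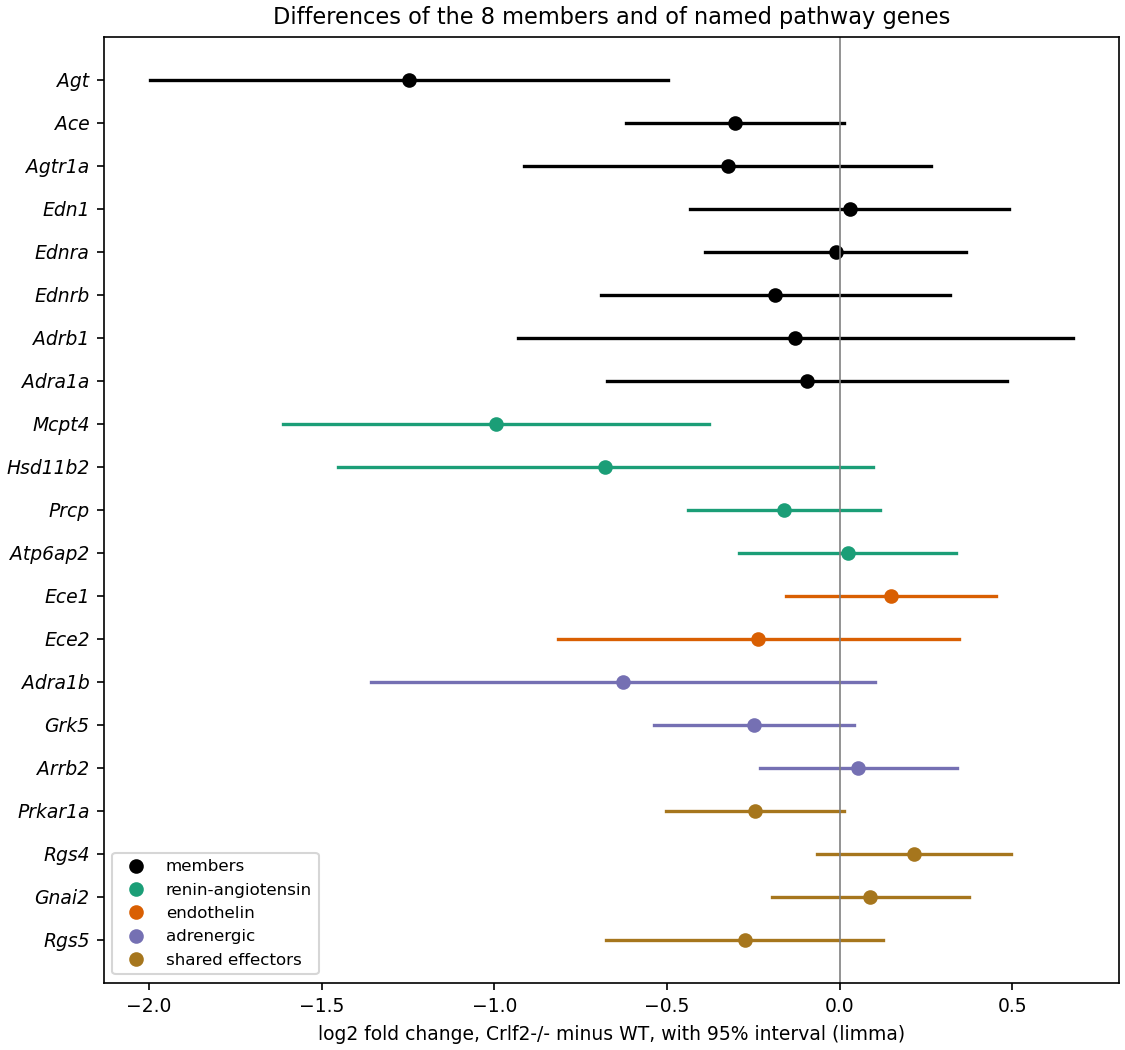
Log2 fold change of Crlf2-/- minus WT (horizontal axis, points) with the 95% interval from limma (lines) for the 8 members (black) and for named genes of the 4 pathway lists (colours). Among the members the interval of *Agt* alone lies wholly below 0, from -2.00 to -0.50, and among the other genes shown that of *Mcpt4* alone, from -1.61 to -0.38.

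Ratios of members within a library do not depend on how libraries are scaled, and 4 were compared by a two-sided exact permutation test, in which 3 against 3 libraries cannot go below p = 0.1. The ratio of *Ednra* to *Ednrb* was 1.45, 1.33 and 1.27 in WT mice and 1.4, 1.47 and 1.74 in Crlf2-/- mice. The groups overlapped through WT replicate 1 (difference of log2 ratios 0.18, exact permutation p = 0.2, 0.4 adjusted over the 4 ratios). The ratio of *Agt* to *Ace* was 0.0304, 0.0324 and 0.0548 in WT mice and 0.0104, 0.0225 and 0.0208 in Crlf2-/- mice. It was lower in every Crlf2-/- library, with a difference of -1.16 on the log2 scale and the smallest p that the design allows (exact permutation p = 0.1, adjusted p = 0.4). This ratio contains the difference of *Agt* itself, whose groups were already known to be apart, and is not a separate result about *Agt*. The log2 ratio of *Edn1* to *Ednra* differed by 0.04 and that of *Adrb1* to *Adra1a* by -0.02, both with an exact permutation p of 1. The ratio of *Agtr1a* to *Agtr1b* could not be formed, as *Agtr1b* was listed at 0 in several libraries.

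The remaining genes of the 3 pathways and of the effectors they share were read from the same fit. Of 93 such genes listed, 77 were tested, 0 were called and 1 had an unadjusted p under 0.05 in limma, which is 1.3% against 6.58% of all genes. Lower in Crlf2-/- mice without overlap were 6 of the 77 (7.79%, against 6.37% of all genes) and 0 were higher without overlap (against 5.37%). The median log2 fold change was -0.03, beside -0.004 for all genes.

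The renin-angiotensin list had 13 tested genes of 20 in the table, of which 0 were called and 1 had an unadjusted p under 0.05, with a median log2 fold change of -0.07. That gene was *Mcpt4*, a chymase of mast cells, an enzyme that can form angiotensin II without *Ace*. It was at 0.4311, 0.4165 and 0.6192 FPKM in WT mice and at 0.2034, 0.2708 and 0.1201 FPKM in Crlf2-/- mice. All Crlf2-/- libraries were below all WT libraries, but on 3 to 15 fragments a library, and the difference did not pass (log2 fold change -0.996 ± 0.27 SE, unadjusted p = 0.00578, adjusted p = 0.369 by limma). *Cma1*, another chymase gene of the list, was looked up after the rest and had 15 to 24 fragments a library. Its groups overlapped (log2 fold change -0.13, adjusted p = 0.996 by limma). *Hsd11b2*, which inactivates glucocorticoids at the mineralocorticoid receptor, was like *Mcpt4* lower without overlap in FPKM, at 0.4226 to 0.7525 against 0.147 to 0.4193 (adjusted p = 0.82 by limma). The gap was narrow, and the fragments themselves overlapped, at 19, 30 and 17 in WT mice and 6, 18 and 15 in Crlf2-/- mice. The most abundant genes were *Atp6ap2*, which encodes the prorenin receptor, at 39.67 to 50.99 FPKM, and *Prcp*, a carboxypeptidase that shortens angiotensin II, at 16.84 to 23.02 FPKM. Neither passed (log2 fold changes 0.02 and -0.16).

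Several genes by which the renin-angiotensin system is usually defined were near the limit of detection in this tissue. The renin gene *Ren1* had 0 to 5 fragments a library and *Mas1*, the receptor gene for angiotensin 1-7, also 0 to 5. The aldosterone synthase gene *Cyp11b2* had 0 fragments in all 6 libraries, where a count of 0 allows up to 0.0791 to 0.0852 FPKM (3 fragments). The genes of this paragraph were chosen after their values were seen.

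The endothelin list had 2 tested genes of 6, and 0 were called. *Ece1*, the gene of the converting enzyme that releases endothelin 1, was at 17.14, 20.26 and 23.86 FPKM in WT mice and at 22.67, 21.13 and 23.5 FPKM in Crlf2-/- mice. The groups overlapped (fold 1.11, 95% interval 0.899 to 1.37, adjusted p = 0.955 by limma). *Ece2*, its relative, was at 0.0755 to 0.188 FPKM (log2 fold change -0.24, adjusted p = 0.984 by limma). The other ligand genes, *Edn2* and *Edn3*, had at most 1 and 5 fragments in any library and were not tested. *Edn1* was thus the endothelin ligand gene with a measurable level here.

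The adrenergic list had 18 tested genes of 22, with 0 called, 0 at an unadjusted p under 0.05 and a median log2 fold change of -0.12. *Adra1b* (log2 fold change -0.63) and *Grk5*, a kinase that desensitises beta receptors (-0.25), had the same adjusted p of 0.827 by limma and overlapping groups. *Arrb2*, an arrestin that binds phosphorylated receptors, was among the most abundant, at 22.67 to 28.1 FPKM (log2 fold change 0.05, adjusted p = 0.996 by limma). *Th*, the first enzyme of catecholamine synthesis, had 0 to 9 fragments, and the noradrenaline transporter gene *Slc6a2* had 6 to 25, and neither was tested.

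Of the effectors downstream of these receptors, 44 of 45 were tested, with 0 called, 0 at an unadjusted p under 0.05 and a median log2 fold change of 0.004. *Prkar1a*, a regulatory subunit of protein kinase A, was at 93.04, 110.4 and 103.1 FPKM in WT mice and at 80.71, 89.33 and 87.5 FPKM in Crlf2-/- mice. The groups did not overlap, and the difference did not pass (log2 fold change -0.25 ± 0.11 SE, adjusted p = 0.798 by limma). *Rgs4* and *Rgs5*, regulators that shorten G protein signals, had 0.22 and -0.28, and *Gnai2*, the gene of an inhibitory G protein subunit and the most abundant of the list, had 0.09. None of these passed. *Prkar2a* was also counted as apart, but only on the scaled values. As deposited, its FPKM overlapped, at 8.253 to 9.103 against 7.749 to 8.26 (log2 fold change -0.11, adjusted p = 0.961 by limma).

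**Figure D3:**
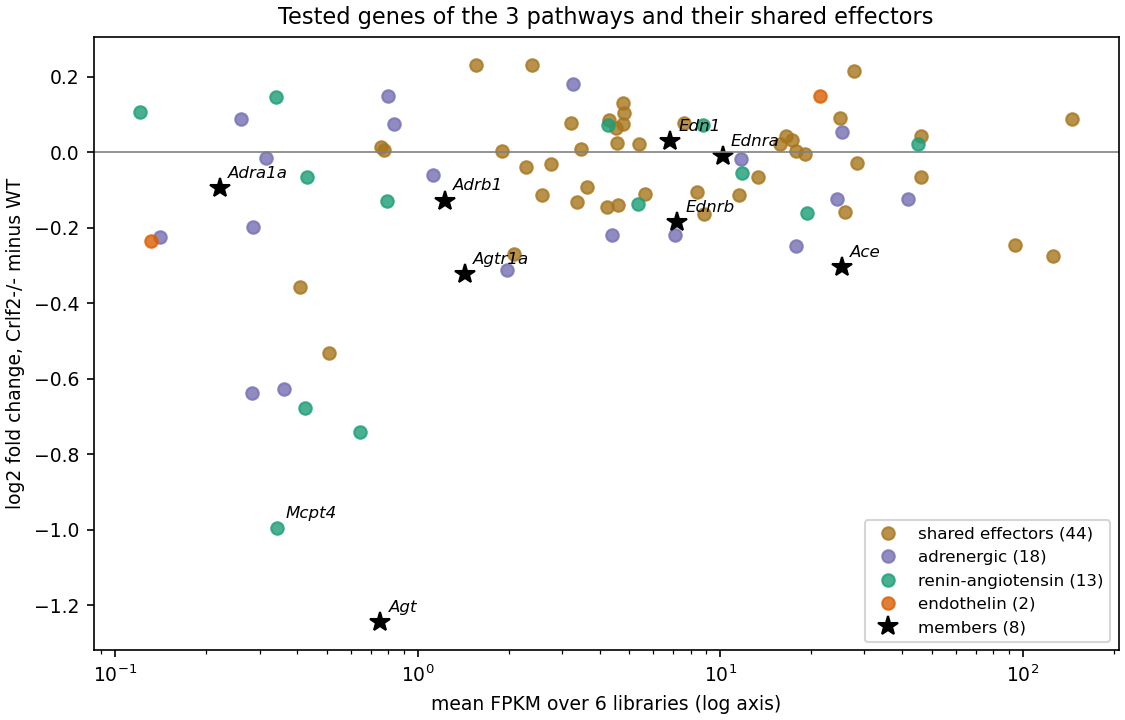
Log2 fold change of Crlf2-/- minus WT (vertical axis) against the mean FPKM of 6 libraries (horizontal log axis) for the 8 members (stars) and the 77 other tested genes (circles, by list). *Agt* (-1.25) and *Mcpt4* (-0.996) are the lowest points, and both have a mean below 1 FPKM.

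Levels of cell type markers also varied between the libraries. The tissue label was set beside its markers. All 12 cardiomyocyte markers and all 8 fibroblast markers were tested, while 6 markers of retina, a tissue that the extraction text of the labels names, were at no more than 0.117 FPKM. All 12 cardiomyocyte markers had a log2 fold change below 0 in Crlf2-/- mice, with a median of -0.66. Of all 15520 genes tested, 7903 were below 0. At an unadjusted p under 0.05 in limma were 4 of the 12 markers (33.3%, against 6.58% of all genes), and 0 were called. The summed level of the 12 markers was 1090, 2100 and 1870 FPKM in WT mice and 844, 750 and 1440 FPKM in Crlf2-/- mice. WT replicate 1 was thus low for its group and Crlf2-/- replicate 3 high, and the groups overlapped through these libraries. The median log2 fold change was -0.05 for 8 fibroblast markers, -0.14 for 8 endothelial markers, 0.07 for 8 smooth muscle and pericyte markers, -0.13 for 5 tested Schwann cell markers and 0.09 for 6 macrophage markers, with 0 called in each list.

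Relative to the median of the 12 cardiomyocyte markers in the same library, the members took other positions. *Agt* was then -5.64, -6.01 and -5.43 log2 units from the markers in WT mice and -5.96, -5.39 and -6.38 in Crlf2-/- mice. The groups overlapped, and the difference was -0.22 in place of -1.25 (exact permutation p = 0.7). It was -0.47 with the mean of the markers in place of their median, and leaving out 1 library moved it to -0.38 (WT replicate 2), -0.09 (WT replicate 3), -0.48 (Crlf2-/- replicate 2) or 0.02 (Crlf2-/- replicate 3). The 7 other members were higher relative to these markers in Crlf2-/- mice, by 0.71 for *Agtr1a* to 1.06 for *Edn1*, with unadjusted exact permutation p from 0.1 to 0.4. In each library the same marker median was subtracted from every member. Each difference is thus the member's own log2 fold change, shifted by the same lower marker median in Crlf2-/- mice. *Edn1* went from 0.03 to 1.06 and *Ace* from -0.30 to 0.73. The 7 higher values are therefore not separate results about the members. Their sizes depended on single libraries. Without Crlf2-/- replicate 1 the value was 0.48 for *Ace*, 0.63 for *Ednra* (1.02 with all libraries) and 0.39 for *Ednrb* (0.84 with all libraries). Without Crlf2-/- replicate 2 it was 0.43 for *Agtr1a* and 0.70 for *Edn1*, and without Crlf2-/- replicate 3 it was 1.11 for *Agtr1a* and 1.43 for *Ednrb*. With the mean of the markers it was 0.47 for *Ace* (0.73 with the median) and 0.45 for *Agtr1a*. All 7 stayed above 0 in each of these settings. *Adrb1* was the one member apart on this scale, at -5.71, -5.19 and -5.57 log2 units in WT mice and -4.62, -4.15 and -5.01 in Crlf2-/- mice (difference 0.90, unadjusted exact permutation p = 0.1, the smallest possible). These values describe where the members stood beside the markers, and the part of cardiomyocyte content in each difference was not tested.

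Markers of fat and liver, which also express *Agt*, and of atrium and lung were set beside it. The summed level of 6 adipocyte markers was 2.87, 14.7 and 2.79 FPKM in WT mice and 0.658, 0.406 and 7.04 FPKM in Crlf2-/- mice. Over the 3 tested ones the median log2 fold change was -1.74, and 0 were called. The highest adipocyte sum was in WT replicate 2 and the second highest in Crlf2-/- replicate 3. The summed level of 4 hepatocyte markers was 0.59 to 1.39 FPKM in WT mice and 0.663 to 3.4 FPKM in Crlf2-/- mice. The tested one, *Alb*, had a log2 fold change of 1.31 (adjusted p = 0.801 by limma). Atrial markers summed to 12 FPKM in Crlf2-/- replicate 2 and to at most 1.14 FPKM elsewhere, and lung markers to 9.89 FPKM in WT replicate 3 and to at most 1.99 FPKM elsewhere. Leaving out any 1 library gave log2 fold changes of *Agt* from -1.46 to -0.98. The adipocyte and hepatocyte lists were chosen after the values of *Agt* were seen. The part of adipocyte, hepatocyte, atrial or lung content in the difference of *Agt* was not tested.

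**Figure D4:**
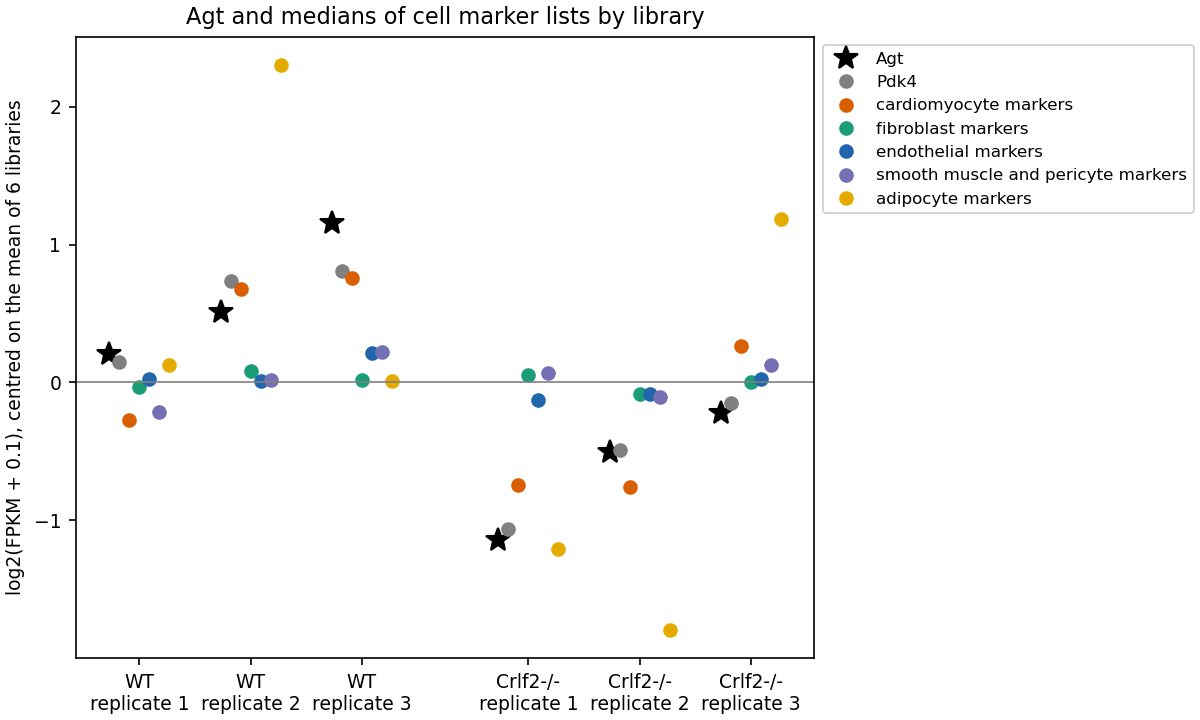
Log2(FPKM + 0.1), centred on the mean of the 6 libraries (vertical axis), of *Agt* (stars), of *Pdk4* and of the medians of 5 marker lists (circles) in each library (horizontal axis). *Pdk4* was chosen for its likeness to *Agt* over these libraries. *Agt* and *Pdk4* lie above 0 in all WT libraries and below 0 in all Crlf2-/- libraries, cardiomyocyte markers lie below 0 in WT replicate 1 (-0.28) and above 0 in Crlf2-/- replicate 3 (0.27), adipocyte markers range most widely, and fibroblast, endothelial and smooth muscle markers stay between -0.21 and 0.22.

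Last, each member was set beside the 12123 other tested genes of at least 1 FPKM, and the 2 genes with the nearest profile were taken. Likeness was the root mean square difference of centred log2 values over the 6 libraries, in which a smaller value is more alike, and over so few libraries some of so many genes lie near any profile. Nearest to *Agt* was *Pdk4*, the gene of a kinase that inhibits pyruvate dehydrogenase, at 0.176, beside a spread of *Agt* itself of 0.735. *Pdk4* was at 9.883, 15.14 and 15.8 FPKM in WT mice and at 4.212, 6.373 and 8.049 FPKM in Crlf2-/- mice. All Crlf2-/- libraries were below all WT libraries, which could be foreseen as *Pdk4* was chosen for its likeness to *Agt*. Second was the predicted gene *Gm29216*, at 0.253. For *Adrb1* the nearest were *Trim55*, the gene of a sarcomere-bound ubiquitin ligase, at 0.12, and *Pkp2*, a desmosomal gene, at 0.13, beside a spread of 0.454. *Trim55* was at 1.519, 4.027 and 3.234 FPKM in WT mice and at 1.475, 2.628 and 2.87 FPKM in Crlf2-/- mice. Replicate 1 was the lowest library of both groups, and *Trim55* was likewise chosen for its likeness to *Adrb1*. *Agtr1a* lay nearest to *Nts*, the neurotensin gene (0.125), and *Rbm12b1* (0.134). The members with less spread had closer neighbours, which were *5830417I10Rik* (0.039) and *Susd2* (0.044) for *Ace*, *Pcdhb20* (0.055) and *Zfp57* (0.071) for *Edn1*, *Nr1d2* (0.04) and *Ap1g1* (0.043) for *Ednra*, *Gm8325* (0.063) and *BC024063* (0.081) for *Ednrb*, and *Wscd2* (0.045) and *Cpeb3* (0.056) for *Adra1a*.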

How the data were processed

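Per the paper's methods, reads were trimmed, HISAT2 2.0.5 aligned them, and the authors counted fragments per gene with featureCounts. The values they deposited are FPKM, with the length of each gene. The labels name mouse and human builds, and gene positions in the table are those of GRCm38. FPKM times gene length gave whole fragments (within 0.05) for 100% of values, with 18508646 to 19682428 fragments per library on listed genes. FPKM, scaled with trimmed means of M values, were tested as log2(FPKM + 0.1) with limma 3.58.1 in R 4.3.3 (trend and robust), and Benjamini-Hochberg adjustment covered the 15520 genes that reached 10 fragments in 3 or more libraries and 15 in total. The test was checked on simulated data. With 3 libraries a group, the limma p-values set a group difference against the spread between these mice, moderated with that of all genes tested. The exact permutation p-values rank the observed grouping of the libraries among all possible ones. Counting intervals cover counting error only. Python 3.11.15 served for the other steps. Members and lists were chosen with earlier results of these data known, and the adipocyte and hepatocyte lists were added after seeing the values of *Agt*. Named genes were the members, *Crlf2*, per pathway list the called genes, the 3 with the smallest p and the 2 most abundant, and per member the 2 nearest profiles. Alternatives were other scalings, filters, pseudocounts, voom, a replicate block and leaving out each library. Same-numbered libraries were not taken as pairs. Results that need items withheld for evaluation are not reported here. The table held 0 columns of other samples. Of 21 renin-angiotensin genes listed, 1 was not found by name.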

Additional observations from a re-analysis of the deposited data

How the results depend on the processing

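No member was called under any of 15 alternatives. Of 532 values recomputed, 496 stayed as reported. For fold changes this meant the same sign and the same side of the threshold, and for counts a number near the reported count. For the ratios and the values relative to cardiomyocyte markers it meant the same sign alone, as no threshold was applied to them. The number of all genes called was 2, became 6 with no filter, 1 with at least 10 fragments in every library and 4 with the replicate block, and ranged from 1 to 14 when 1 library was left out (14 without Crlf2-/- replicate 1). Under the block the p of *Agt* was 0.000872 before adjustment and 0.26 after it (limma), and no member changed its call. The labels give same-numbered mice nothing in common, and their deviations correlated by -0.016, 0.115 and 0.12. When 1 library was left out, the log2 fold change ranged from -0.158 to 0.174 for *Edn1*, -0.166 to 0.105 for *Ednra*, -0.475 to 0.124 for *Adrb1* and -0.236 to 0.125 for *Adra1a*, so their signs are not fixed. The same ranges were -0.213 to 0.267 for the log2 ratio of *Edn1* to *Ednra*, -0.237 to 0.364 for that of *Adrb1* to *Adra1a*, -0.478 to 0.016 for *Agt* relative to cardiomyocyte markers, -0.057 to 0.126 for *Atp6ap2* and -0.010 to 0.151 for *Arrb2*. The causes were not tested. Members at an unadjusted p under 0.05 numbered 1, 2 with voom (*Agt* and *Ace*), 3 without WT replicate 1 and 2 without Crlf2-/- replicate 3. Depth limits *Adra1a*, *Agt* and *Adrb1* most, with under 100 fragments a library.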
